A study of Drosophila melanogaster with 2 samples.

Results

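The proteasome genes of Drosophila melanogaster were examined for binding of gfzf in whole embryos by chromatin immunoprecipitation and sequencing (ChIP-seq). Members were all protein-coding genes of the Ensembl annotation whose symbol begins with Prosalpha, Prosbeta, Rpn or Rpt, which gave 48 of 13968 genes on chromosomes with peaks. They comprise 32 genes for subunits of the standard particle and 16 copies, whose symbol is that of a parent gene followed by R or T. The embryos were 0 to 24 h old, of both sexes, and came from a transgenic line with stable expression of gfzf carrying green fluorescent protein at its C-terminus. Chromatin was precipitated with an antibody against that tag in 2 biological replicates, which share the same line and form the only group, so no condition could be compared. Whole embryos pool all cell types, and a site bound strongly in few cells cannot be told apart from one bound weakly in many. A gene was called bound when the summit of a peak lay within 250 bp of any of its transcription start sites (TSSs) in the optimal set, which holds the 5007 peaks on build dm6 that the authors kept after filtering by irreproducible discovery rate (IDR). Peak signal is the score deposited by the authors. Its scale is not stated, so signals were compared only within a list, and replicates were compared by rank, where rank 1 is the strongest of the 30000 peaks in a replicate's relaxed list.

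The proteasome degrades proteins tagged with ubiquitin. Its barrel-shaped core stacks rings of alpha subunits, which gate the entrance, and rings of beta subunits, of which Prosbeta1, Prosbeta2 and Prosbeta5 carry the proteolytic sites. A regulatory particle caps the core. Its base holds a ring of Rpt ATPases that unfold substrates together with the non-ATPase subunits Rpn1, Rpn2, Rpn10 and Rpn13, and its lid holds Rpn subunits that scaffold and carry out removal of ubiquitin. Drosophila has duplicate subunit genes, several of which are known for expression in the male germline. No expression was measured here, so that property of the copies could not be checked. The protein gfzf has a glutathione S-transferase domain beside FLYWCH-type zinc fingers, and is known as a coactivator at promoters bound by M1BP, the factor that recognises the core promoter element Motif 1.

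gfzf bound nearly all standard subunit genes and almost none of the copies. Of the 48 members 30 were bound (62.5%), beside 4609 of all 13968 protein-coding genes (33.0%). The bound members included 29 of the 32 subunit genes, or 90.6%, with an exact Clopper-Pearson 95% interval of 75.0 to 98.0. Only 1 of the 16 copies was bound, or 6.25%, with an interval of 0.158 to 30.2. These intervals treat genes as independent and do not cover read counting, since the sequencing depth is unknown. All parts of the particle were represented: 6 of 7 core alpha genes, 6 of 7 core beta genes, 7 of 8 lid genes and 10 of 10 base genes were bound. With so few genes in each, the intervals of these 4 classes overlapped widely.

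**Figure D1:**
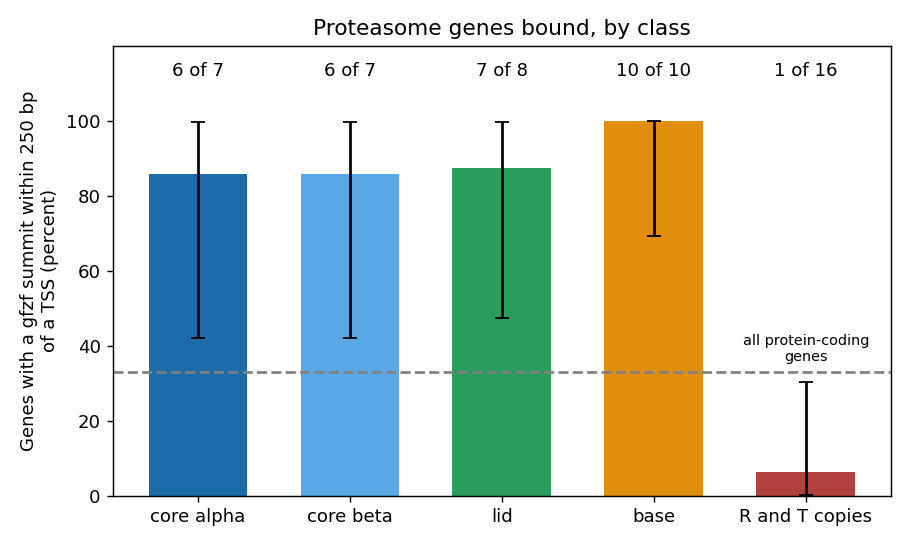
Percent of genes in each class with a gfzf summit within 250 bp of a TSS; bars give the share, error bars the exact 95% interval over genes, numbers above the bars the counts, and the dashed line the share of all protein-coding genes (33.0%). The 4 subunit classes stand at 85.7% or more, while the copies stand at 6.25%.

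How strongly the bound genes were bound differed far more between single genes than the share bound did between classes. The signal of the 30 bound members ran from 92.6 at Rpn11 to 6101 at Prosbeta1, with a median of 742, beside a median of 724 over all bound genes, whose range was 88.4 to 15685. Of the 30, 15 lay above that median. Among the 500 strongest peaks, however, 9 of the 30 were found, beside 14.0% of all bound genes. At Prosbeta1, Rpn2, Rpn8, Rpn9, Rpn13 and Rpt4 that summit lay nearer to the TSS of a neighbouring gene than to the member's own. At Prosbeta5, Prosbeta7 and Rpn1 it did not. The median signal was 349 for core alpha, 3079 for core beta, 365 for the lid and 786 for the base, and the ranges of all 4 classes overlapped.

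In the alpha ring, which forms the gated outer surface of the core, the bound genes fell into stronger and weaker members. Prosalpha3 had a signal of 2123, with 1278 in replicate 1 (rank 901) and 846 in replicate 2 (rank 819). Prosalpha2 had 2103, with 1281 (rank 895) and 819 (rank 853). Prosalpha4 had 543, with 314 (rank 2245) and 231 (rank 2081). At Prosalpha4 a second summit lay 222 bp downstream of the TSS with a signal of 90.3, close to the lower end of the set. Prosalpha7 had 156, with 84.1 (rank 4134) and 66.6 (rank 3592). Prosalpha6 had 104, with 74.9 (rank 4416) and 25.2 (rank 6199). Prosalpha5 had 102, with 53.9 (rank 5344) and 50.4 (rank 4182). The last 2 genes thus lay past rank 5007 in 1 of the replicates, and neither would be counted from that replicate's 5007 strongest peaks alone. Prosalpha1 was not bound.

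In the beta ring 2 of the 3 genes for proteolytic subunits had the strongest and second strongest peaks, and the remaining one was not bound. Prosbeta1, the subunit with caspase-like activity, had a signal of 6101, with 3598 in replicate 1 (rank 105) and 2524 in replicate 2 (rank 75). Prosbeta5, with chymotrypsin-like activity, had 4641, with 2803 (rank 210) and 1842 (rank 196). Prosbeta2, with trypsin-like activity, had no summit in the optimal set. The structural subunit genes, which lack a proteolytic site, filled the range below. Prosbeta7 had 3579, with 2211 (rank 380) and 1384 (rank 388). Prosbeta3 had 2579, with 1558 (rank 684) and 1038 (rank 615). Prosbeta6 had 1053, with 653 (rank 1595) and 403 (rank 1577). Only Prosbeta4 among the bound beta genes fell below the median of all bound genes, at 254, with 160 (rank 2972) and 92.3 (rank 3077). Both replicates gave the same order for these 6 genes.

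The lid held a pair of strong peaks and 5 weaker ones. Rpn9, a scaffold subunit, had a signal of 3658, with 2312 in replicate 1 (rank 348) and 1363 in replicate 2 (rank 398). Rpn8, the catalytically inactive partner of Rpn11, had 3252, with 2008 (rank 447) and 1235 (rank 460). Rpn11 itself, the metalloprotease that removes ubiquitin chains, had the weakest peak of all bound members at 92.6, with 60.0 (rank 5011) and 34.9 (rank 5052). Both ranks lay past 5007, so it would not be counted from the 5007 strongest peaks of either replicate alone. The partners of this deubiquitinating pair were thus the second strongest and the weakest of the bound lid genes. The scaffold subunits Rpn7, Rpn6, Rpn5 and Rpn12 lay between. Rpn7 had 834, with 528 (rank 1810) and 307 (rank 1839). Rpn6 had 365, with 241 (rank 2494) and 129 (rank 2643). Rpn5 had 214, with 127 (rank 3306) and 88.1 (rank 3146). Rpn12 was near the lower limit, and in replicate 2 it fell past rank 5007. Its signal was 103, with 83.7 (rank 4151) and 31.5 (rank 5367). Rpn3, another scaffold subunit, was not bound. Within 100 bp of a TSS 4 of the 8 lid genes had a summit, beside 26.6% of all genes. So did 7 of 10 base genes, 5 of 7 core beta genes and 6 of 7 core alpha genes. With the most upstream TSS of each gene alone, 4 lid genes were counted, beside 31.3% of all genes. The counts of the other classes did not change under that choice.

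In the base all 10 genes were bound, with the Rpn genes higher than most of the ATPase genes. Rpn2, the large scaffold that holds Rpn13, had a signal of 5074, with 3072 in replicate 1 (rank 174) and 2021 in replicate 2 (rank 158). Rpn13, a ubiquitin receptor, had 4410, with 2863 (rank 199) and 1563 (rank 304), the largest ratio of replicate ranks among bound members at 1.53. Rpn1, a docking site for ubiquitin and for shuttle proteins, had 3889, with 2313 (rank 347) and 1586 (rank 293). Rpn10, another ubiquitin receptor, was the lowest of these 4. It had 1165, with 745 (rank 1475) and 428 (rank 1510). Among the ATPases, which form a single ring in equal numbers, Rpt4 stood apart from the other 5. Rpt4 had 4098, with 2497 (rank 292) and 1611 (rank 273). Rpt2 had 406, with 251 (rank 2455) and 154 (rank 2463). Rpt2 also had a second summit of 158, placed 163 bp upstream of a TSS. Rpt6 had 265, with 160 (rank 2974) and 108 (rank 2852). Rpt3 had 177, with 106 (rank 3608) and 86.5 (rank 3177). It was not counted as bound when only the strongest summit of each peak interval was kept. The lowest ATPase genes were close to each other. Rpt1 had 167, with 100 (rank 3721) and 65.0 (rank 3639). Rpt5 had 156, with 92.6 (rank 3888) and 62.9 (rank 3696). The median was 4150 for the 4 Rpn genes and 221 for the 6 Rpt genes, and Rpt4 lay inside the range of the Rpn genes. The Rpt4 summit lay 35 bp from its own TSS but 23 bp from that of mldr. At Rpn13 the distances were 197 bp and 74 bp, the latter to CtsL1. Both neighbours run in the opposite direction, so these peaks could belong to either gene. A peak was shared with a neighbouring gene at 2 of the 4 Rpn genes and 3 of the 6 Rpt genes.

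**Figure D2:**
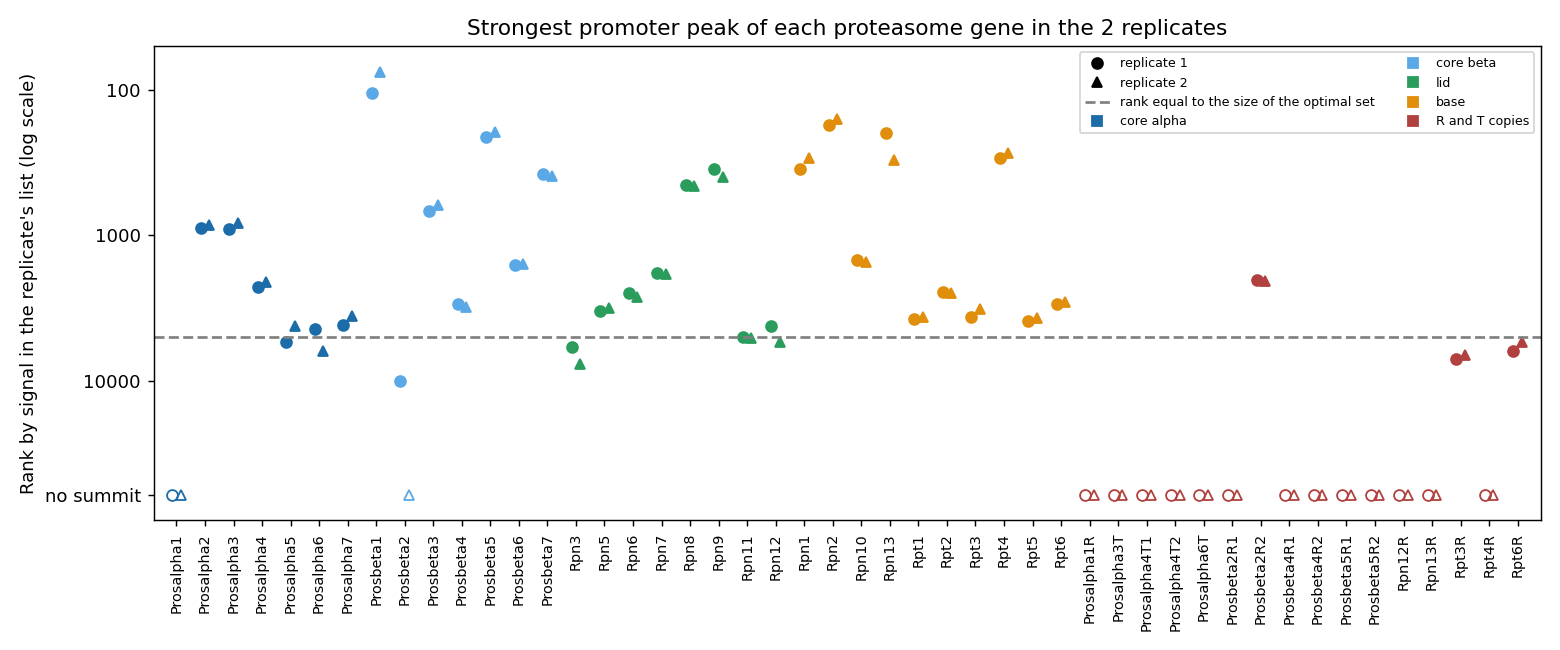
Rank of the strongest peak within 250 bp of a TSS in the relaxed list of replicate 1 (circles) and replicate 2 (triangles) for the 48 members, coloured by class, on a log axis with rank 1 at the top; open symbols had no summit, and the dashed line marks rank 5007. Circles and triangles of a gene lie close together for most bound genes, and 13 of the 16 copies are open in both replicates.

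Both replicates ranked the bound members alike. The larger rank divided by the smaller had a median of 1.06 over the 30 and reached 1.53 at Rpn13. In replicate 1, 28 of the 30 were inside that list's 5007 strongest peaks, and in replicate 2, 27 were. Since the optimal set was itself filtered on these replicates, this closeness is conditioned on the filter.

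The summits sat mainly just upstream of the start site. Of the 30, 26 were upstream (86.7%), beside 89.0% of all bound genes, and the median position was 44.5 bp upstream, beside 48.0 bp. The summit lay outside protein-coding gene bodies at 20 members, in a UTR at 5 and in an intron at 5, and at 0 in a coding exon. The introns belonged to the member itself at Rpn6, Rpn8 and Rpn9, to CG17985 at Rpt1 and to CG1801 at Rpt6. Peaks were 147 to 1327 bp wide. No summit lay near the distance limit on its outer side. The farthest bound summits lay 221 bp from the TSS at Rpn8 and 197 bp at Rpn13, and the nearest summit at an unbound member lay 2130 bp away, at Rpn3.

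Many of these promoters are divergent, with a neighbouring gene starting on the other strand inside the reach of the same peak. At 16 of the 30 bound members (53.3%) the summit was also within 250 bp of the TSS of another protein-coding gene, beside 41.9% of all bound genes. All 16 neighbours ran in the opposite direction, and at 10 of them the neighbour's TSS was the nearer one. At Rpn5 the summit lay 106 bp from its own TSS and 3 bp from that of Hat1, a histone acetyltransferase gene. At Rpt5 it lay 34 bp from its own TSS and 8 bp from that of RanBP3, which takes part in nuclear transport. At Rpn2 the distances were 185 bp and 73 bp, the latter to Slbp, the gene of the protein that binds the stem-loop of histone mRNAs. Which gene such a peak belongs to cannot be told from the peak lists. The strongest member peak, at Prosbeta1, lay 74 bp from its TSS and 47 bp from that of Rrp42, an exosome subunit gene. Unshared peaks were nevertheless found up to a signal of 3889, at Rpn1. The median signal was 1614 for the 16 shared peaks, which ran from 104 to 6101, and 550 for the 14 unshared peaks, which ran from 92.6. Over all bound genes the medians were 756 and 708.

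**Figure D3:**
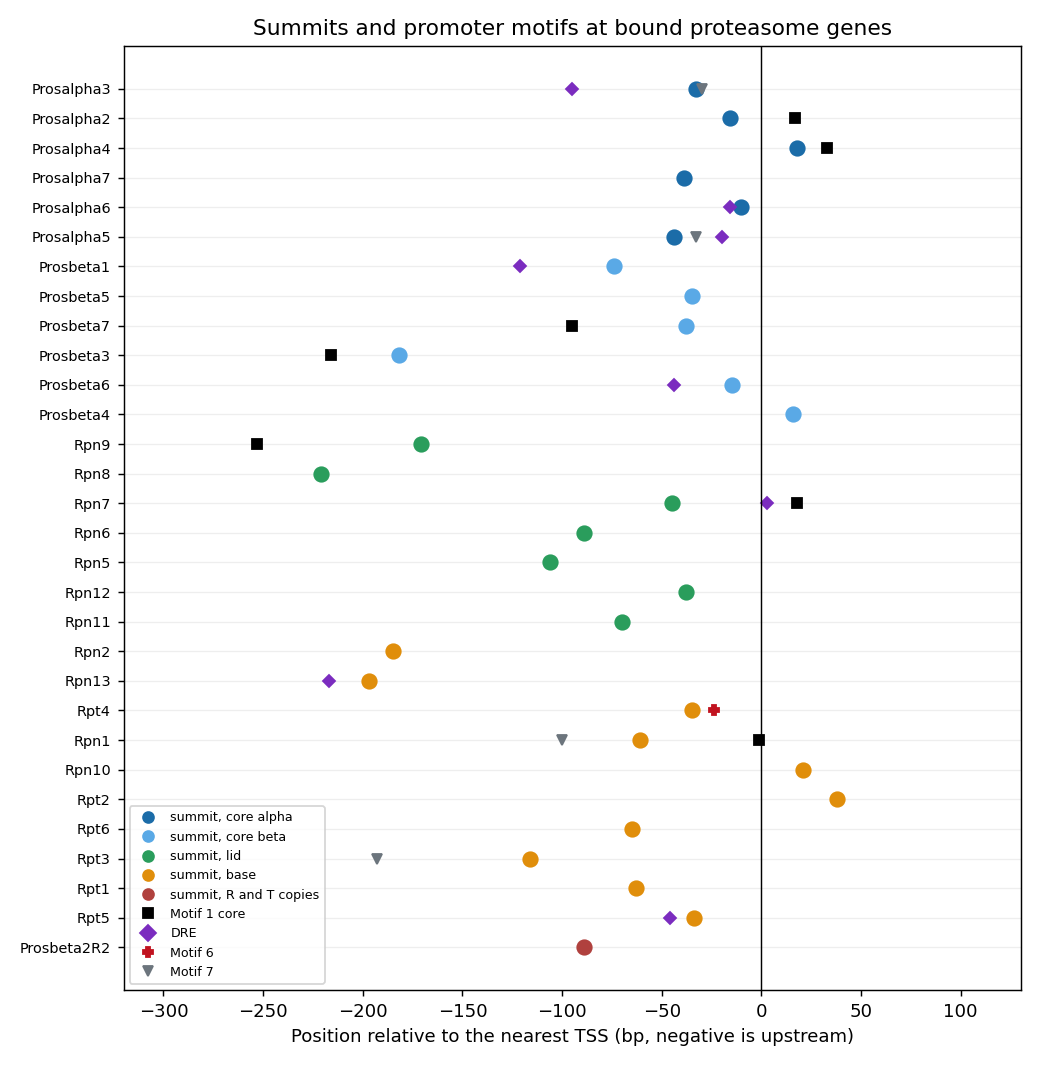
Position of the strongest summit (coloured circles, by class) and of 4 promoter motifs within 100 bp of it (other symbols) relative to the nearest TSS in bp, for the 30 bound members, ordered by class and then by falling signal. Most summits lie upstream of 0, and those of Rpn8, Rpn13, Rpn2, Prosbeta3 and Rpn9 lie farthest upstream.

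The promoters were searched on both strands for the core of Motif 1 (GGTCACAC), for the DNA replication-related element (DRE, TATCGATA), for the core promoter elements Motif 6 and Motif 7, for TATAAA, and for the antioxidant response element (ARE, TGACNNNGC), the sequence bound by Cnc with its partner Maf-S. A match describes letters and not a bound factor. Shares near member summits stand beside those of all 5007 optimal summits. The latter were not limited to the reach of a TSS, as member summits were by the rule. Within 100 bp of the summit the Motif 1 core was found at 7 of the 30 bound members (23.3%), beside 18.5% of the 5007 optimal summits. In promoters from 250 bases before to 50 after the most upstream TSS it was found in 5 of the 32 subunit genes (15.6%) and 0 of the 16 copies, beside 7.69% of all genes and 1016 of the 4609 bound genes, the last a larger share than that of the subunit genes. These 7 stretches are shown because Motif 1 is the element tied to gfzf in earlier knowledge. Each is 30 bases of dm6, read on the strand of the motif, with the Motif 1 core in capitals.
Prosalpha2 (bound, chr3R:12431327-12431356, plus strand): attcagcattcGGTCACACtgccgcccaat
Prosalpha4 (bound, chrX:16276292-16276321, plus strand): acccatgctgcGGTCACACtgcggcatttc
Prosbeta3 (bound, chr3R:9006424-9006453, minus strand): tgacgcggcctGGTCACACtgaaagctaat
Prosbeta7 (bound, chr3R:5358252-5358281, plus strand): actattagcttGGTCACACcgttttacatg
Rpn7 (bound, chr3R:22462018-22462047, minus strand): gataattttggGGTCACACtggtagtacat
Rpn9 (bound, chr3R:23733246-23733275, plus strand): actcaccgtctGGTCACACtaaccgaacag
Rpn1 (bound, chr3L:19915039-19915068, plus strand): gttcgccgcgcGGTCACACtgcaaaaagcg

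All 4 subunit classes contribute to these sites, and all 7 genes had signals of 543 or more, with a median of 2579 and a maximum of 3889. The ARE was found within 100 bp of 6 of the 30 summits, beside 7.19% of optimal summits. The letters of the ARE can overlap the Motif 1 core, since GTCA reads on both. They did so at Prosbeta3, Prosbeta7 and Rpn1, which is 3 of the 7 sites above, beside 90 of the 925 optimal summits with a Motif 1 core (9.73%). The choice to look at that overlap was made after the sites were seen.

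The DRE, the sequence recognised by the factor Dref, was found in a larger share of subunit promoters than of promoters in general. From 250 bases before to 50 after the most upstream TSS, 12 of the 32 subunit genes held it (37.5%), beside 9.36% of all genes and 18.1% of all bound genes. It was found in 0 of the 16 copies. Near the summit it was found at 8 of the 30 bound members (26.7%), beside 12.4% of all optimal summits, near a TSS or not. Among the 3 unbound subunit genes, Prosbeta2 and Rpn3 hold it too. Both are shown beside 4 bound genes, again as 30 bases of dm6 with the DRE in capitals.
Prosalpha6 (bound, chr2L:10221324-10221353, plus strand): cccgaatccctTATCGATAcccgatacaca
Prosbeta6 (bound, chr3L:16610444-16610473, minus strand): gtatgtataccTATCGATAacgtttaagca
Rpn7 (bound, chr3R:22462033-22462062, minus strand): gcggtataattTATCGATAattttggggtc
Rpt5 (bound, chr3R:23752819-23752848, plus strand): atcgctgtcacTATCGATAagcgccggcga
Prosbeta2 (not bound, chr3L:14999930-14999959, plus strand): ccatgaatataTATCGATAcaatatcgatt
Rpn3 (not bound, chr2L:19051582-19051611, plus strand): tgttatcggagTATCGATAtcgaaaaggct

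Among the 8 bound genes with the DRE near the summit the signal covered nearly the whole range of the members, from 102 at Prosalpha5 to 6101 at Prosbeta1, with a median of 944. At Prosalpha6 the centre of the DRE lay 3 bp from the summit, and that gene's signal of 104 was among the weakest. Rpn7 was the only one of the 7 genes with a Motif 1 core that also held the DRE near its summit. Motif 7 was found near 4 summits (13.3%, beside 11.9%), Motif 6 near 1 (3.33%, beside 4.79%) and TATAAA near 10 (33.3%, beside 26.2%). In the promoter window Motif 6 was found in 2 of 32 subunit genes (6.25%) and 2 of 16 copies (12.5%), beside 2.23% of all genes. Motif 7 was found in 5 of 32 and 1 of 16, beside 9.28%, and the ARE also in 5 of 32 and 1 of 16, beside 8.62%. TATAAA was found in 13 of 32 subunit genes and 5 of 16 copies, beside 45.8% of all genes.

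At 14 of the 30 bound members none of Motif 1 core, DRE, Motif 6 and Motif 7 was found within 100 bp of the summit. At the other 16 (53.3%) at least 1 was, beside 40.5% of all optimal summits, near a TSS or not. The 14 genes without a match had a median signal of 315 and included both the weakest member, Rpn11, and strong ones, Rpn2 at 5074 and Prosbeta5 at 4641. The summit regions of Rpn2 and Rpt4, the strongest base genes whose sequence is shown, give this contrast. They cover up to 50 bases on each side of the summit on the strand of the gene. The capitals mark Motif 6, which is present at Rpt4.
Rpn2 (bound, chr3R:29153289-29153389, plus strand): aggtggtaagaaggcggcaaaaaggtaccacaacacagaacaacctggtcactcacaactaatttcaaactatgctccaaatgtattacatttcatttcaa
Rpt4 (bound, chrX:6291230-6291316, minus strand): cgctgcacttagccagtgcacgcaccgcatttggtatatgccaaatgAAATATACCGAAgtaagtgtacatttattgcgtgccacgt

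The 3 unbound subunit genes differed in how far they were from being called. Rpn3 had a relaxed summit within reach in both replicates, at rank 5831 in replicate 1 and rank 7566 in replicate 2, and at rank 5994 in the pooled list, of which the optimal set holds the first 5007. Prosbeta2 had one at rank 9975 in replicate 1 and none in replicate 2. Prosalpha1 had none in either list. In the relaxed pooled list 34 of the 48 members had a summit within reach, beside 51.6% of all genes, and the 4 members gained were Prosbeta2, Rpn3, Rpt3R and Rpt6R.

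The sequence around Prosalpha1 is repeated, which bears on its value and on that of its copy. Prosalpha1 and Prosalpha1R start 3093 bp apart, their annotated proteins are identical at 244 of 244 residues, and their promoters at 283 of 283 aligned bases. Every stretch of 36 bases within 250 bp of either TSS occurs at least once more in the genome. Reads from such a sequence cannot be assigned to one gene by sequence alone, and how the authors treated them is not given in the sources used here. Both genes are therefore uncertain, and their lack of a peak cannot be read as a lack of binding. Without them 29 of 31 subunit genes (93.5%) and 1 of 15 copies (6.67%) were bound. Of the other 46 members, 45 had no repeated stretch, and Rpn3 had 20.2% of its stretches repeated.

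Set against their parents, the copies were unbound in most pairs. The 16 copies derive from 12 parents, of which 10 were bound (83.3%). In 13 pairs the parent was bound and the copy was not, in 1 the copy was bound and the parent was not, in 2 neither was, and in 0 both were. The pairs are not independent, since Prosalpha4, Prosbeta2, Prosbeta4 and Prosbeta5 have more than 1 copy each. Of the 20 subunit genes without a copy, 19 were bound.

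The unbound copies of bound parents span all classes. Among the alpha genes they were Prosalpha3T (parent signal 2123), Prosalpha4T1 and Prosalpha4T2 (543 at Prosalpha4) and Prosalpha6T (104). Among the beta genes they were Prosbeta4R1 and Prosbeta4R2 (254 at Prosbeta4) and Prosbeta5R1 and Prosbeta5R2 (4641 at Prosbeta5). In the regulatory particle they were Rpn12R (103), Rpn13R (4410), Rpt3R (177), Rpt4R (4098) and Rpt6R (265). Parents with the strongest peaks thus had copies as devoid of a called peak as those with the weakest. Prosbeta2R1 and its parent Prosbeta2 were both unbound. The nearest optimal summit to the 15 unbound copies lay 3159 to 69887 bp away, with a median of 27137 bp.

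A summit of the relaxed lists was in reach at 2 of the unbound copies, both of ATPase genes. The relaxed pooled list is labelled as holding background as well as peaks, so such a summit need not be signal. In that list 3 of the 16 copies had a summit in reach, the bound one included, beside 51.6% of all genes. Rpt6R had a relaxed summit at rank 6256 in replicate 1, rank 5355 in replicate 2 and rank 5507 in the pooled list. Rpt3R had one at ranks 7019, 6603 and 6490. In the pooled list both lay past rank 5007, where the optimal set ends. Their proteins are the most like their parents apart from Prosalpha1R, with 88.9% identity for Rpt6R and 82.0% for Rpt3R. Rpt4R, at 81.9%, had no summit in any list. The other 13 unbound copies, Rpt4R included, had no relaxed summit in reach in either replicate.

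The exception was Prosbeta2R2, a copy of the trypsin-like subunit gene and the only bound copy. Its signal was 649, with 411 in replicate 1 (rank 2018) and 241 in replicate 2 (rank 2053), so both replicates placed it well inside the optimal set. Prosbeta2R2 is 43.3% identical to Prosbeta2 in protein sequence. Its summit lay 89 bp upstream of its TSS and 40 bp from that of CG1116, which runs in the opposite direction, so the peak could belong to either. None of the 4 promoter motifs was found within 100 bp of that summit. The family is shown by the 70 bases before and 30 bases from the TSS on the strand of each gene, with DRE and Motif 7 matches in capitals, and the bound copy also by its summit region.
Prosbeta2 (not bound, chr3L:14999881-14999980, plus strand): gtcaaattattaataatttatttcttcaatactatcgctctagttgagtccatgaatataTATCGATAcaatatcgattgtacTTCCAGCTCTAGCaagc
Prosbeta2R1 (not bound, chrX:5808884-5808983, plus strand): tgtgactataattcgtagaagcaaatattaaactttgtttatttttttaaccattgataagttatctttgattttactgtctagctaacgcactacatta
Prosbeta2R2 (bound, chr3R:5219499-5219598, minus strand): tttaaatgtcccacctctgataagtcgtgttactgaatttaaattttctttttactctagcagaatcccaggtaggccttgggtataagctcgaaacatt
Summit region of Prosbeta2R2 (bound, chr3R:5219567-5219667, minus strand): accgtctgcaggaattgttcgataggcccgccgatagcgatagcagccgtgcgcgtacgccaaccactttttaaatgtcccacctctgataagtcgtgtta

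In that family the DRE and Motif 7 lie at the unbound parent and neither lies in the windows of the copies. Promoters from 250 bases before to 50 after the most upstream TSS were compared over all 16 pairs. The Motif 1 core was in the parent alone in 2, both pairs of Prosalpha4, and in neither gene in 14. The DRE was in the parent alone in 6, in the copy alone in 0 and in both in 0. Prosbeta2, itself unbound, is counted with each of its copies for both the DRE and Motif 7. Motif 7 was in the parent alone in 4 and in the copy alone in 1, Rpt6R. Motif 6 was in the parent alone in 1 (Rpt4 beside Rpt4R), in the copy alone in 1 (Rpn12R) and in both in 1 (Prosalpha1R). Motif 6 and Motif 7 were thus also found at unbound copies of bound parents that lack them. Pairs of both kinds follow, with DRE, Motif 6 and Motif 7 matches in capitals. Rpn12 holds a DRE in the promoter compared, but outside the bases shown. The windows are as above, except that the one of Rpt4 is shortened at its upstream end to 87 bases to limit the transcribed bases shown.
Prosalpha6 (bound, chr2L:10221281-10221380, plus strand): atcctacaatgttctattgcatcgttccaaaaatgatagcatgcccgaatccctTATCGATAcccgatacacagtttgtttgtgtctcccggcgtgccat
Prosalpha6T (not bound, chr2L:13231969-13232068, plus strand): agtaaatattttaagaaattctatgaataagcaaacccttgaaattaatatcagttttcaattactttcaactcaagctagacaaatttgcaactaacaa
Rpt4 (bound, chrX:6291216-6291302, minus strand): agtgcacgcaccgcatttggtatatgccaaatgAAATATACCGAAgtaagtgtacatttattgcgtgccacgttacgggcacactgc
Rpt4R (not bound, chr3L:11941842-11941941, plus strand): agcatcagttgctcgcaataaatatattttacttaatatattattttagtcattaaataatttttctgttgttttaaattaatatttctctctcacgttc
Rpn12 (bound, chr3L:16582958-16583057, plus strand): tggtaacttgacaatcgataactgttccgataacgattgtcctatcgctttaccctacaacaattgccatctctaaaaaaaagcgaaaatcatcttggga
Rpn12R (not bound, chr3L:15042541-15042640, minus strand): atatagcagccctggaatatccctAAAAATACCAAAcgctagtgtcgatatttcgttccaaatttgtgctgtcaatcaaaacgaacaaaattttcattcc
Rpt6 (bound, chrX:21315982-21316081, plus strand): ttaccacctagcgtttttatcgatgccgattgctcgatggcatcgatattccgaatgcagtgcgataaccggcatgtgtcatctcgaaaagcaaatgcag
Rpt6R (not bound, chr3R:30583668-30583767, minus strand): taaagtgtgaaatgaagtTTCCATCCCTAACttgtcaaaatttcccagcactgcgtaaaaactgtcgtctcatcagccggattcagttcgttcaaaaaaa

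**Figure D4:**
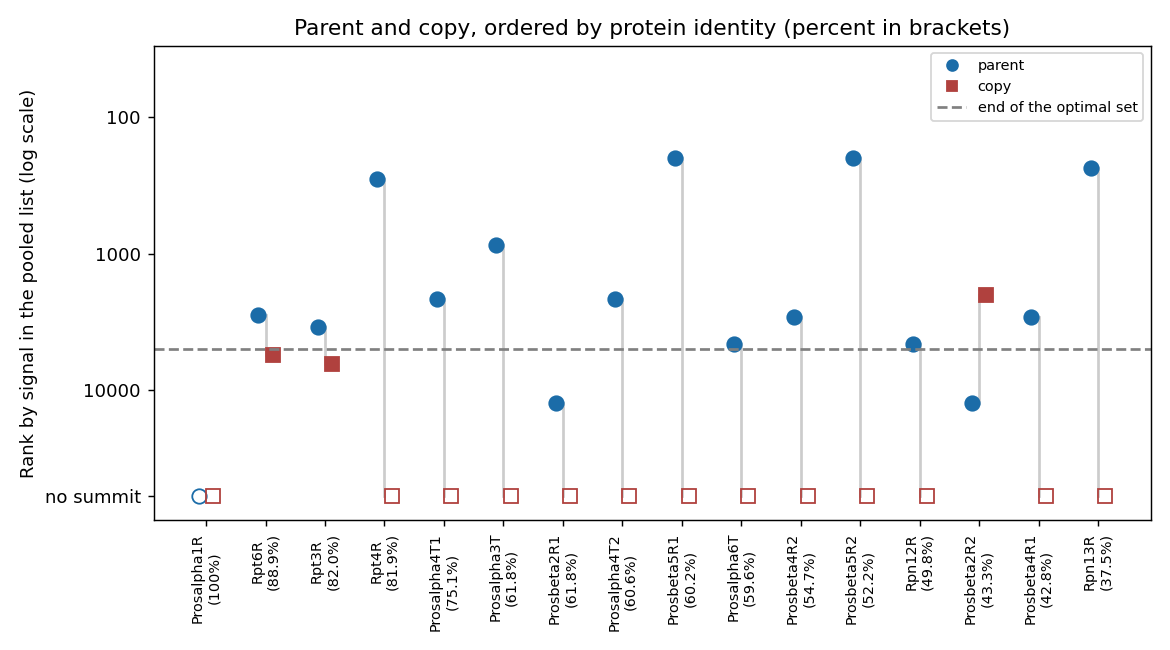
Rank of the strongest peak within 250 bp of a TSS in the relaxed pooled list for each parent (blue circles) and copy (red squares), on a log axis with rank 1 at the top, with pairs ordered from left to right by falling protein identity; open symbols had no summit and the dashed line marks rank 5007. The parent stands above the dashed line and the copy below it or without a summit in 13 of the 16 pairs, and Prosbeta2R2 is the pair with the order turned.

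Other features also differed between copies and parents. Protein identity ran from 37.5% at Rpn13R to 100% at Prosalpha1R, with a median of 60.4%. Of the 16 copies 10 lie on another chromosome arm than the parent, 10 have fewer coding exons and 6 have a single coding exon, as does 1 of the parents, Rpn12. The promoters of copies other than Prosalpha1R showed 51.5 to 68.1% identity with those of their parents in a global alignment. That is inside the 53.7 to 71.7% of 496 combinations of a copy with a gene that is not its parent, except for the lowest value, which is at Prosbeta4R2. Apart from Prosalpha1R, no copy's promoter was thus more like its parent's than promoters that are not paired can be. Prosalpha4T1, Rpn12R and Rpn13R lie inside other protein-coding genes. The neighbours Prosbeta4R1 and Prosbeta4R2 start 2348 bp apart and share 43.3% of residues.

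Genes that act with the proteasome were bound about as often as the subunit genes. Of 23 listed genes 22 were matched by symbol, and 20 of those were bound (90.9%, beside 33.0% of all genes), with signals from 91.3 to 4073 and a median of 794. The highest was Keap1, which restrains the transcription factor Cnc, at 4073, with ranks of 276 and 313 in replicates 1 and 2. The Keap1 summit lay 231 bp upstream of the TSS, near the limit of 250 bp. Next in signal came cnc itself at 2683, with ranks of 588 and 679 and a summit 62 bp upstream. Cnc is the fly relative of the mammalian factors that raise proteasome gene expression. Its partner gene maf-S was not bound, with relaxed summits at ranks 5335 and 8635. The small lid subunit gene Sem1, which the symbol rule does not cover, was bound at 2430 with ranks of 731 and 721. Pngl, the gene of a deglycosylase that acts on Cnc-type factors in other animals, was bound at 1911.

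The ubiquitin and shuttle genes were bound over the same range. Among ubiquitin genes, Ubi-p63E had 2335, RpL40 1199, Ubi-p5E 184 and RpS27A 91.3. The activating enzyme gene Uba1 had 1786. Of the segregase that extracts ubiquitin-tagged proteins, TER94 had 348 and its cofactors p47 and Npl4 had 2496 and 174. The shuttle genes Rad23, Ubqn and rngo had 1867, 1414 and 390. The genes of the deubiquitinases that dock on the base were among the weaker, with 254 at Uch-L5 and 213 at Usp14. The assembly factor gene Pomp had 316, the regulator gene PI31 had 338, and ntc, whose F-box protein binds PI31, had 140. REG, an alternative proteasome activator, was not bound, with relaxed summits at ranks 11569 and 19537.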

How the data were processed

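ChIP-seq peak lists were deposited for each of 2 replicates, for their pooled reads and for the optimal IDR set, on dm6 per the labels. Peak signal (column 7) is the score the authors' caller gave, on an unstated scale. The aligner, the caller, its settings and the read depth were not given in the sources used here. No interval therefore covers counting error. Control reads, signal tracks and the dm3 lists were not used here.

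A summit (columns 2 and 10) was matched to Ensembl release 115 TSSs of protein-coding transcripts. All peak and gene ends fitted the RefSeq Release 6 genome, from which sequences were read. Each member takes its strongest summit in reach. Replicate and pooled ranks come from each relaxed list by itself. Proteins were translated from the longest coding transcript without an internal stop and aligned globally with gap penalties of 11 and 1. Python 3.11.15, numpy 2.4.6, scipy 1.17.1, Biopython 1.88 and matplotlib 3.10.9 were used. Summit assignment and motif search were tested on simulated data. Alternatives changed the TSS distance, peak list, summit choice, TSS choice and motif window. A replicate was also left out by using the other's 5007 strongest peaks.

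The members, classes, motifs and other pathway genes were chosen with earlier results of these data known, so no test was made and counts stand beside those of all genes. The rule for named genes took every bound subunit gene, every copy and the listed pathway genes. No sequence from chromosome arm 2R is printed, which leaves out Prosbeta1, Prosbeta5, Prosalpha3, Rpn8 and Rpn13, among others. Of the remaining bound subunit genes, the 2 strongest of each class are shown by a motif site or summit region. The DRE sites and the parent and copy windows shown were chosen after the values were seen, and other pairs are not printed.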

Additional observations from a re-analysis of the deposited data

How the results depend on the processing

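No paired analysis was possible because the 2 replicates form 1 group. Of 83 values recomputed under alternatives, 71 stayed within the tolerance (1.5 times for counts) and 12 moved. Among the 2503 strongest optimal peaks, 19 members were bound (beside 20.2% of all genes), with 3 core alpha, 4 lid and 6 base genes and 5 parents of copies. The lid count was 4 within 100 bp of a TSS and 4 with the most upstream TSS alone. In the relaxed pooled list 3 copies had a summit in reach, beside 51.6% of all genes. Within 100 bp the count of all members was 23, beside 26.6% of all genes. That setting lost Prosbeta3, Rpn13, Rpn2, Rpn5, Rpn8, Rpn9 and Rpt3, and left 7 of the 10 base genes. Within 500 and 1000 bp the count of all members was 30 each time, beside 36.9% and 39.3% of all genes. With only the strongest summit of each peak interval it was 29, beside 31.8%, with Rpt3 lost and 9 base genes left. Without replicate 1 it was 27, beside 32.2%, with Prosalpha6, Rpn11 and Rpn12 lost. Without replicate 2 it was 28, beside 32.7%, with Prosalpha5 and Rpn11 lost. The median rank percentile of bound members ran from 93.5 to 93.6 with either replicate left out. Leaving out Prosalpha1 and Prosalpha1R, chosen after seeing the data, changed no count of bound genes. With 250 bp on each side of the TSS, Motif 7 was in 10 member promoters in place of 6 and the ARE in 10 in place of 6, and from 100 bp before to 50 bp after it, TATAAA was in 11 in place of 18. The cause of these moves beyond the changed windows and lists was not tested. Unknown depth limits what the absence of a peak at a copy can show.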
